A study of Mus musculus with 24 samples.

Results

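A set of 10 genes of hepatic fat storage and breakdown was followed by name through 24 liver transcriptomes: Elovl3, Lpin1, Lpin2, Pnpla2, Cidec, Cd36, Noct, Plin2, Plin5 and G0s2. They are 10 of the 54733 genes in the tables, and all 10 were among the 11244 genes that were tested, those whose average over the 24 libraries reached 1 FPKM (fragments per kilobase of transcript, scaled to the mapped fragments of the library). The libraries came from whole livers of male C57BL/6 mice, either WT or homozygous for ΔRRE, a CRISPR-Cas9 deletion in the Bmal1 5′-UTR region that removes the ROR response elements (RREs) through which REV-ERB and ROR receptors make Bmal1 transcription rhythmic. Livers were taken in constant darkness at CT2, CT6, CT10, CT14, CT18 and CT22, circadian time in hours, with 2 libraries per genotype at each time. The deletion is in the germline and so is carried by every cell of the mutant, not by hepatocytes alone, and the study worked mainly with line #1 of its mutants. The methods give an age of 8 to 24 weeks for the males whose tissues were taken for RNA, not separately for the sequenced livers. The RNA-seq methods give n = 2 at each time, and neither they nor the labels state outright that the 2 were separate animals, so the p-values measure the spread between these libraries.

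Liver fat is made by elongating fatty acids and joining them to glycerol, stored in droplets coated by perilipins and CIDE proteins, and released again by lipases, chiefly the adipose triglyceride lipase encoded by Pnpla2. The liver clock drives many of these steps at set times of day through the E-box activators CLOCK and BMAL1, through the REV-ERB repressors and through feeding signals. Elovl3 and Noct are long-standing examples of liver transcripts with a strong daily rhythm.

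The Bmal1 transcript itself, Arntl in the tables, was read first as a check of the labels. In WT, Arntl was at 12.6 and 13.2 FPKM at CT2, 2.42 and 2.86 at CT6, 0.195 and 0.0919 at CT10, 2.21 and 1.15 at CT14, 5.96 and 5.76 at CT18, and 10.3 and 11.2 at CT22. In ΔRRE, the lowest of the 12 libraries was at 2.1 FPKM (CT10) and the highest at 4.21 FPKM (CT6). Arntl thus went through a deep trough in WT, with a wave of 2.57 ± 0.31 (SE, log2), and stayed within a narrow band in ΔRRE. The small ΔRRE wave of 0.29 ± 0.09 did not pass limma's test over all genes (adjusted p = 0.156). It met the study's 3 criteria for a rhythmic gene in the form used here, with the p of the fitted wave in place of that of BIO_CYCLE, the study's program. Its highest time-point mean was 1.57 times its lowest, against a limit of 1.5. By BIO_CYCLE on quantitative RT-PCR, the paper judged Bmal1 mRNA arrhythmic in the mutant cells and tissues. The difference in rhythm had a size of 2.31 ± 0.34 (limma's adjusted p = 0.0463; exact permutation p = 4.29e-05, two-sided, the smallest this design allows), and Arntl was 1 of 11244 genes, 0.00889% of those tested, to pass limma's test. That call depended on the setting, while the size lay between 1.53 and 2.56 under the alternatives. Limma's adjusted p passed in 5 of 24 fits that left out 1 library (up to 0.198, without WT CT10 replicate 1). Over 8 other settings it ran from 1.2e-05 with time as a factor to 0.221 with 0.01 FPKM added, and passed in 4. Of those 4, 1 was the reported fit read at a limit of 0.1, so it could only pass. With the replicate number as a block the adjusted p was 0.0771. At single times Arntl passed at CT2 (-1.91, adjusted p = 0.0238) and at CT10 (3.33, adjusted p = 1.22e-05).

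Hepatocyte markers were abundant in the libraries and adipocyte markers were near 0. The summed level of 6 hepatocyte markers lay between 35196 and 52244 FPKM, led by Alb with a mean of 27420 FPKM. The 6 adipocyte markers (Adipoq, Lep, Retn, Cfd, Plin1 and Adig) summed to a median of 0.255 FPKM and at most 3.17 FPKM; Cfd was the most abundant at a mean of 0.510 FPKM and Retn was listed at 0 in every library. The 5 pancreas acinar markers summed to at most 1.08 FPKM. Of the other cell types, the summed markers had a median of 27.6 FPKM for 6 liver endothelial genes (range 21.9 to 46.1, led by Clec4g), 33.3 FPKM for 5 Kupffer cell genes (range 12.1 to 61.9, led by Cd5l) and 70.0 FPKM for 5 stellate cell genes (range 43.8 to 116, led by Dcn). The 4 cholangiocyte genes had a median of 5.04 FPKM (range 2.31 to 8.79).

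A pair of libraries stood apart in globin RNA. The 5 red blood cell markers summed to a median of 1087 FPKM, and to 4451 FPKM in ΔRRE CT14 replicate 1 and 4322 FPKM in ΔRRE CT10 replicate 1. In these libraries the globin gene Hbb-bs was at 1680 and 1698 FPKM (median of all libraries 378). The marker Alas2, at 54.1 and 53.2 FPKM, was near its median of 50.7. The next highest sum was 2062 FPKM, in ΔRRE CT18 replicate 1. The ΔRRE CT14 libraries had the lowest correlation of any replicate pair (r = 0.955 across genes, which are not independent replicates, against up to 0.974 for other pairs). That value belongs to both libraries and does not show which of them stands apart. Without ΔRRE CT14 replicate 1 the ΔRRE wave of Cidec no longer passed, and no other call of a rhythm by adjusted p among the 10 genes changed; without ΔRRE CT10 replicate 1 none changed. The ΔRRE waves that kept passing without the former were those of Elovl3 (adjusted p = 0.0215), Lpin1 (0.0335) and Noct (0.0287), and that of G0s2, which did not pass, went from 0.0848 to 0.0915; without the latter, Elovl3 was at 0.0425, Lpin1 at 0.0334, Cidec at 0.0298 and Noct at 0.0155.

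The genes Lpin1, Lpin2, Plin2, Plin5 and Cd36 are shown here with short stretches of sequence because they hold letters that clock factors are known to bind, and the promoters were read for the genes that had an entry. RefSeq promoter windows on GRCm38.p6, 250 bases before to 50 bases after each start, were at hand for 9 of the 10 genes in 13 windows; Elovl3 had none. The E-box CACGTG, which reads the same on both strands and is the target of CLOCK and BMAL1, lay in 2 of these windows, in Lpin2 from base -9 to -4 and in Plin2 from base -4 to 2 relative to the start, and in 7.15% of 32851 windows of all genes. The letters AGGTCA, the half-site of nuclear receptors such as REV-ERB and ROR, lay on either strand in 5 windows of 4 genes (Lpin1, Plin2, Plin5 and Cd36) and in 16.3% of all windows. The full RRE, which ends in AGGTCA or GGGTCA, and the D-box TTANGTAA with C or T at N were in none of the 13 windows and in 0.384% and 1.06% of all windows. Below are 30 bases around a match in the gene's own direction, with the matching letters in capitals. The windows of Plin2 and Cd36 carry AGGTCA on the opposite strand, printed as TGACCT. A match describes these letters only and is not a binding site.
Lpin2, E-box, chr17:71183511-71183540, plus strand: cggagctcgcgtCACGTGgccgggccgggg
Plin2, E-box, chr4:86670046-86670075, minus strand: cagctgggctatCACGTGgctcggaggctt
Lpin1, AGGTCA, chr12:16611023-16611052, minus strand: ggaagtagcttgAGGTCActtcctgtagtc
Plin5, AGGTCA, chr17:56117701-56117730, minus strand: agtcctagtctgAGGTCAgccatggtgact
Plin2, AGGTCA, chr4:86670260-86670289, minus strand: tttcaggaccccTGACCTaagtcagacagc
Cd36, AGGTCA, chr5:17836107-17836136, minus strand: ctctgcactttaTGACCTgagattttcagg

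The 10 genes spanned a wide range of levels. Elovl3 and Plin2 were the most abundant, at means of 202 and 162 FPKM over the 24 libraries, and Elovl3 was the higher of the pair in 12 of 24, so their order is not set. G0s2 followed at 82.3 FPKM, below Plin2 in 20 of 24 libraries. Lpin2 (45.7 FPKM) was above Pnpla2 (24.0 FPKM) in every library, while Pnpla2 and Plin5 (19.5 FPKM) changed places from library to library, Pnpla2 being higher in 13 of 24. Lpin1 (14.3 FPKM) and Cd36 (12.2 FPKM) did not keep an order either, with Lpin1 higher in 8 of 24. Noct (4.05 FPKM) and Cidec (1.43 FPKM) were the lowest, and Noct was above Cidec in 19 of 24.

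Most of these genes cycled. A wave of 24 h shared by both genotypes was fitted to log2(FPKM + 0.1), and 9 of the 10 genes passed limma's test at an adjusted p under 0.05, all except Cd36, against 30.6% of all genes tested. In WT alone 7 of 10 passed against 10.3% of all genes, and in ΔRRE alone 4 of 10 against 4.57%. With no filter on low values, when 28380 genes were tested, the counts were 3 of 10 in WT, 0 of 10 in ΔRRE and 8 of 10 for the shared wave. By the study's 3 criteria (here with the p of the harmonic fit under 0.3, a peak mean more than 1.5 times that of the trough, and the largest SD within 1.5 times the gap between them), 10 of 10 were rhythmic in WT and 9 of 10 in ΔRRE, against 37% and 35.4% of all genes. The median amplitude of the shared wave, the distance from its middle to its peak, was 0.80 on the log2 scale over the 10 genes and 0.17 over all genes tested. The genes were chosen by name as clock-linked, so a high share of rhythmic genes describes the list. In whole liver, fewer cells of a type and less RNA per cell cannot be told apart. Markers of minor liver cells also had a shared rhythm: 4 of 5 stellate cell genes (Lrat, Reln, Dcn and Ecm1, amplitudes from 0.32 to 0.53), 3 of 6 endothelial genes (Stab2, Clec4g and Oit3, from 0.28 to 0.33) and 2 cholangiocyte genes (Krt19, 0.48, and Sox9, 0.66). So did 4 of 6 hepatocyte genes (Apoa1, Ttr, Cyp2e1 and Hnf4a, from 0.14 to 0.22), while 0 of 5 Kupffer cell genes and 0 of 5 red blood cell genes passed in limma's test. The part of these markers in the rhythms of the 10 genes was not tested.

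**Figure D1:**
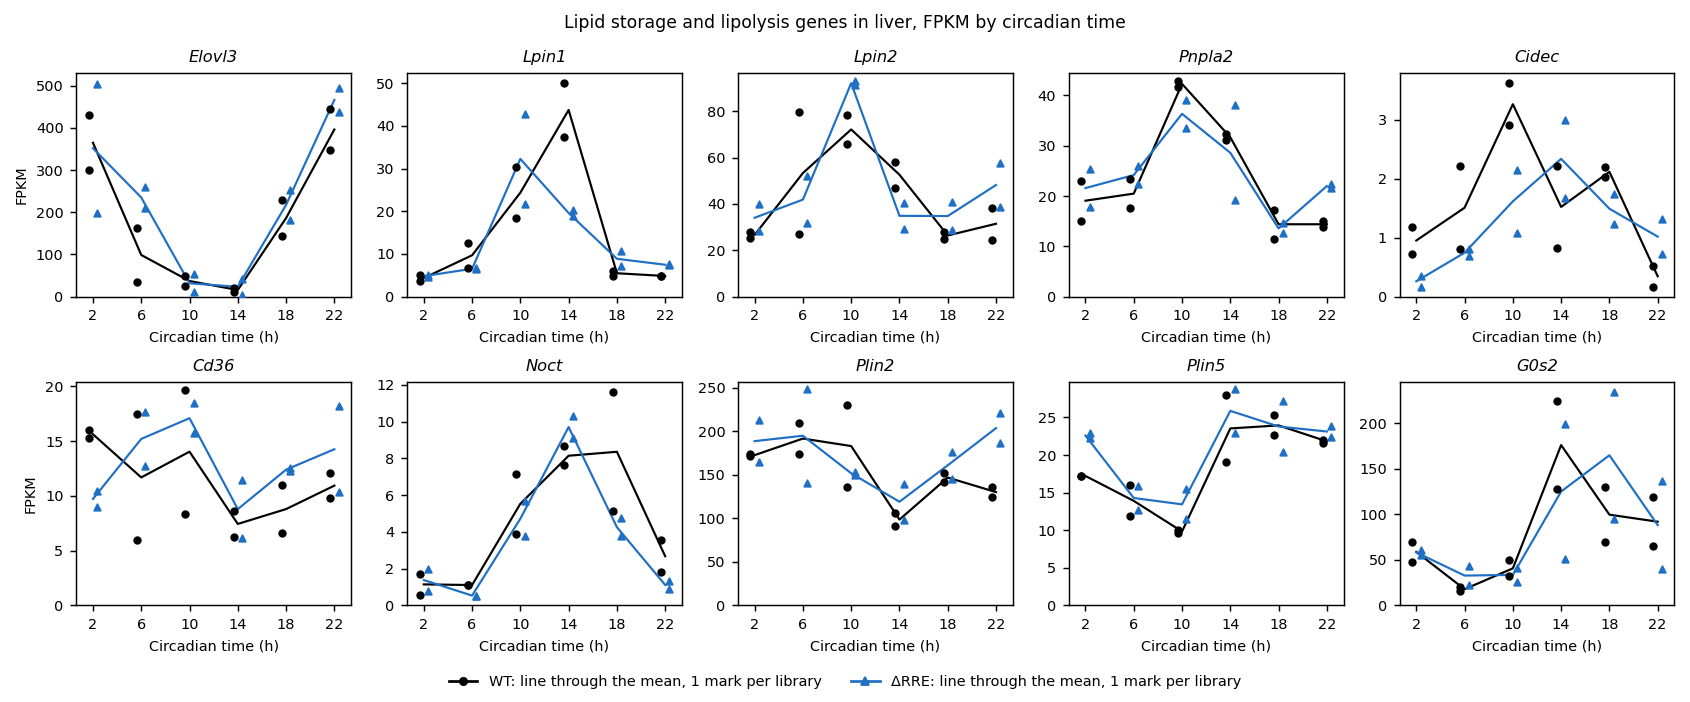
FPKM (vertical axes, linear, from 0) of the 10 genes against circadian time in hours; each mark is 1 library, black circles for WT and blue triangles for ΔRRE, and lines join the means of the 2 libraries. Elovl3 was lowest at CT14 and highest at CT22 in both genotypes, Lpin1, Lpin2, Pnpla2 and Noct had their highest means from CT10 to CT18, and Cd36 had no wave that passed the test.

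Elovl3, an elongase of very long saturated fatty acids on chromosome 19 (46131897 to 46135694, plus strand, GENCODE M21 on GRCm38), had the widest swing. In WT its level was 299 and 430 FPKM at CT2, 34.2 and 163 at CT6, 49.6 and 24.6 at CT10, 10.7 and 20.9 at CT14, 228 and 144 at CT18, and 347 and 444 at CT22. In ΔRRE it was 199 and 504 FPKM at CT2, 210 and 260 at CT6, 10.9 and 52.6 at CT10, 4.62 and 42.2 at CT14, 253 and 181 at CT18, and 436 and 495 at CT22. Both genotypes were high around subjective dawn and low at CT10 and CT14, and only at CT6 did all ΔRRE libraries lie above all WT libraries. The shared wave had an amplitude of 2.43 ± 0.28 (SE, log2) and a peak at CT23.9 ± 0.44 h (adjusted p = 3.96e-06), a peak 29.0-fold above its trough and the 9th largest amplitude of the 11244 genes. The wave passed in WT (2.34 ± 0.30, adjusted p = 0.0017) and in ΔRRE (2.53 ± 0.44, adjusted p = 0.0161). Replicates were more than 2-fold apart in 5 of 12 groups, and 9.13-fold apart in ΔRRE at CT14; without ΔRRE CT14 replicate 1 the ΔRRE amplitude was 2.08 and still passed (adjusted p = 0.0215).

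The last exon of Elovl3 meets that of Pitx3, a neighbouring homeobox gene on the opposite strand, with 10 shared bases. Over the 12 group means of log2 values, Pitx3 was one of the 3 genes most like Elovl3 (r = 0.975, amplitude 2.72, mean 3.55 FPKM), beside Gm44250 (r = 0.977) and Baat (r = 0.972), which joins bile acids to taurine or glycine. The libraries were stranded, but whether strand was used when fragments were assigned is not stated in the sources used here, so a fragment over those bases could have been given to either gene. Of the other 9 genes, none shares an exon base with another annotated gene.

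The lipins Lpin1 and Lpin2 are phosphatidate phosphatases that make the diacylglycerol from which triglyceride is built, and lipin 1 also acts on transcription in the nucleus. Lpin1 (chromosome 12, 16535669 to 16610966, minus strand) was at 3.69 and 5.05 FPKM at CT2 in WT, 12.6 and 6.79 at CT6, 18.3 and 30.4 at CT10, 37.4 and 49.99 at CT14, 6.06 and 4.91 at CT18, and 4.85 and 4.83 at CT22. In ΔRRE it was 5.01 and 4.61 FPKM at CT2, 6.40 and 6.67 at CT6, 21.7 and 42.8 at CT10, 20.3 and 18.9 at CT14, 7.10 and 10.6 at CT18, and 7.34 and 7.61 at CT22. The WT mean was highest at CT14 and the ΔRRE mean at CT10, and all WT libraries were above all ΔRRE libraries at CT6 and CT14 and below them at CT18 and CT22. The amplitude was 1.61 ± 0.22 in WT (adjusted p = 0.00288) and 1.17 ± 0.19 in ΔRRE (adjusted p = 0.0131), with fitted peaks at CT11.8 ± 0.53 h and CT12.4 ± 0.64 h. As a fold from trough to peak these waves span 9.27 in WT and 5.04 in ΔRRE. The difference in rhythm had a size of 0.49 ± 0.32 and did not pass (limma p = 0.321, adjusted p = 0.9999; exact permutation p = 0.208, two-sided).

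Lpin2 (chromosome 17, 71182560 to 71249817, plus strand) had an earlier fitted peak and a smaller amplitude. Its WT libraries lay between 24.7 and 79.8 FPKM with a median of 33.2, and its ΔRRE libraries between 28.2 and 93.0 FPKM with a median of 40.2. The highest time-point mean was at CT10 in both genotypes, 72.1 FPKM in WT and 92.1 FPKM in ΔRRE. The shared wave (0.54 ± 0.14, peak at CT9.95 ± 0.996 h, adjusted p = 0.016) passed, the wave in WT passed narrowly (0.71 ± 0.17, adjusted p = 0.0406) and the one in ΔRRE did not (0.37 ± 0.20, adjusted p = 0.465). At CT6 the WT libraries differed 2.98-fold (79.8 and 26.8 FPKM), and the WT call was lost on leaving out any one of 9 of the 12 WT libraries, with adjusted p up to 0.107 (without WT CT10 replicate 1).

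Cd36, the fatty acid translocase of the cell surface (chromosome 5, 17781690 to 17888801, minus strand), was the 1 gene of the 10 without a wave that passed a test over all genes. Its WT libraries lay between 5.94 and 19.7 FPKM with a median of 10.4, and its ΔRRE libraries between 6.14 and 18.5 FPKM with a median of 12.4. The amplitude was 0.39 ± 0.20 in WT (adjusted p = 0.39) and 0.18 ± 0.17 in ΔRRE (adjusted p = 0.761). It met the study's criteria in WT and not in ΔRRE. WT replicates at CT6 were at 17.4 and 5.94 FPKM, a wider gap than between any pair of time-point means.

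The transcripts of droplet coat proteins had fitted peaks at different times. Plin2 (chromosome 4, 86648386 to 86670060, minus strand), the main perilipin of liver droplets, lay between 91.1 and 230 FPKM in WT and between 98.4 and 249 FPKM in ΔRRE, with medians of 147 and 159 FPKM. Its shared wave was small, with an amplitude of 0.31 ± 0.08 and a peak at CT3.14 ± 1.04 h (adjusted p = 0.021); it passed in neither genotype alone, and the shared call was lost without WT CT14 replicate 2 (adjusted p = 0.0522) or without ΔRRE CT14 replicate 2 (adjusted p = 0.053). Both genotypes had their lowest mean at CT14, where WT was at 106 and 91.1 FPKM and ΔRRE at 140 and 98.4 FPKM.

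Cidec (chromosome 6, 113424634 to 113435760, minus strand), which promotes the growth of droplets by fusion, was the scarcest of the 10. In WT it was at 1.19 and 0.721 FPKM at CT2, 0.809 and 2.21 at CT6, 2.91 and 3.62 at CT10, 0.826 and 2.22 at CT14, 2.20 and 2.04 at CT18, and 0.524 and 0.169 at CT22. In ΔRRE it was at 0.358 and 0.165 FPKM at CT2, 0.809 and 0.682 at CT6, 1.09 and 2.15 at CT10, 3.0 and 1.68 at CT14, 1.75 and 1.24 at CT18, and 1.31 and 0.728 at CT22. The WT mean was highest at CT10 and the ΔRRE mean at CT14; all WT libraries were higher at CT2, CT10 and CT18, and all ΔRRE libraries were higher at CT22. The shared wave passed (1.02 ± 0.21, adjusted p = 0.00271). The fitted peak was at CT11.2 ± 1.14 h in WT (amplitude 1.05 ± 0.31, adjusted p = 0.102) and at CT14.3 ± 0.70 h in ΔRRE (1.17 ± 0.21, adjusted p = 0.0212), 3.08 h later. The difference in rhythm, 0.88 ± 0.40, was the largest of the 10 genes and did not pass (limma p = 0.112, adjusted p = 0.9999; exact permutation p = 0.158, two-sided). Without ΔRRE CT14 replicate 1 the ΔRRE wave no longer passed (adjusted p = 0.0707), nor did it without ΔRRE CT2 replicate 1 (adjusted p = 0.0537), while the WT wave passed without WT CT14 replicate 1 (adjusted p = 0.0416).

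Among the genes of lipolysis, the fitted peaks of the lipase and its inhibitor were at CT9.77 and CT18.0, a difference that was not tested, and at CT14 in WT both had high means (31.7 FPKM for Pnpla2 and 176 FPKM for G0s2). Pnpla2 (chromosome 7, 141455198 to 141460743, plus strand), the lipase that takes the first fatty acid off triglyceride, was at 23.0 and 15.1 FPKM at CT2 in WT, 23.3 and 17.6 at CT6, 42.8 and 41.7 at CT10, 32.3 and 31.0 at CT14, 17.3 and 11.5 at CT18, and 13.8 and 14.9 at CT22. In ΔRRE it was at 25.4 and 17.8 FPKM at CT2, 25.9 and 22.4 at CT6, 39.2 and 33.5 at CT10, 38.0 and 19.2 at CT14, 14.6 and 12.6 at CT18, and 22.4 and 21.6 at CT22. Both genotypes were highest at CT10. The shared wave had an amplitude of 0.58 ± 0.11 and a peak at CT9.77 ± 0.71 h (adjusted p = 0.00104); it passed in WT (0.73 ± 0.13, adjusted p = 0.0112) and not in ΔRRE (0.46 ± 0.15, adjusted p = 0.178).

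G0s2 (chromosome 1, 193272161 to 193273217, minus strand) encodes a small protein that binds this lipase and blocks it. In WT it was at 47.6 and 69.9 FPKM at CT2, 19.9 and 15.8 at CT6, 49.5 and 31.9 at CT10, 127 and 225 at CT14, 130 and 69.4 at CT18, and 65.0 and 119 at CT22. In ΔRRE it was at 61.0 and 55.4 FPKM at CT2, 43.0 and 22.6 at CT6, 41.0 and 26.1 at CT10, 51.4 and 199 at CT14, 234 and 95.3 at CT18, and 137 and 39.8 at CT22. Both genotypes had their lowest means at CT6 and CT10, and Pnpla2 had its highest mean at CT10. The shared wave peaked at CT18.0 ± 0.64 h with an amplitude of 1.17 ± 0.20 (adjusted p = 0.00041); it passed in WT (adjusted p = 0.0188) and not in ΔRRE (adjusted p = 0.0848). The WT call was lost without either WT library of CT6 (adjusted p = 0.0523 and 0.0529), and the ΔRRE wave passed without ΔRRE CT22 replicate 2 (adjusted p = 0.0354). ΔRRE replicates at CT14 were 3.87-fold apart, with the low value in replicate 1. G0s2 lies within the span of Lamb3 on the opposite strand and shares no exon base with it.

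Plin5 (chromosome 17, 56111601 to 56117596, minus strand), a perilipin that holds the lipase and its coactivator at the droplet and joins droplets to mitochondria, was nearest to G0s2 in peak time. It ran from 9.64 FPKM at CT10 to 28.0 FPKM at CT14 in WT, with a median of 18.1, and from 11.4 FPKM at CT10 to 28.8 FPKM at CT14 in ΔRRE, with a median of 22.4. The shared wave peaked at CT19.5 ± 0.61 h with an amplitude of 0.50 ± 0.08 (adjusted p = 0.00024). Its replicates were at most 1.47-fold apart, the smallest such maximum of the 10 genes.

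Noct encodes nocturnin, an enzyme of the deadenylase family that acts on NADPH and NADP+, and whose loss is known to alter fat handling in mice (chromosome 3, 51224447 to 51251644, plus strand). In WT it was at 0.594 and 1.7 FPKM at CT2, 1.1 and 1.12 at CT6, 3.90 and 7.16 at CT10, 7.62 and 8.66 at CT14, 5.11 and 11.6 at CT18, and 1.81 and 3.53 at CT22. In ΔRRE it was at 0.804 and 1.96 FPKM at CT2, 0.533 and 0.537 at CT6, 3.76 and 5.67 at CT10, 10.3 and 9.11 at CT14, 4.73 and 3.78 at CT18, and 0.921 and 1.31 at CT22. The mean was highest at CT18 in WT and at CT14 in ΔRRE, WT was higher without overlap at CT6, CT18 and CT22, and ΔRRE was higher without overlap at CT14. The wave passed in WT (1.65 ± 0.20, peak at CT15.1 ± 0.47 h, adjusted p = 0.00126) and in ΔRRE (1.75 ± 0.26, peak at CT14.5 ± 0.57 h, adjusted p = 0.007). The shared amplitude of 1.7 ± 0.17 was the 37th largest of 11244 genes.

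**Figure D2:**
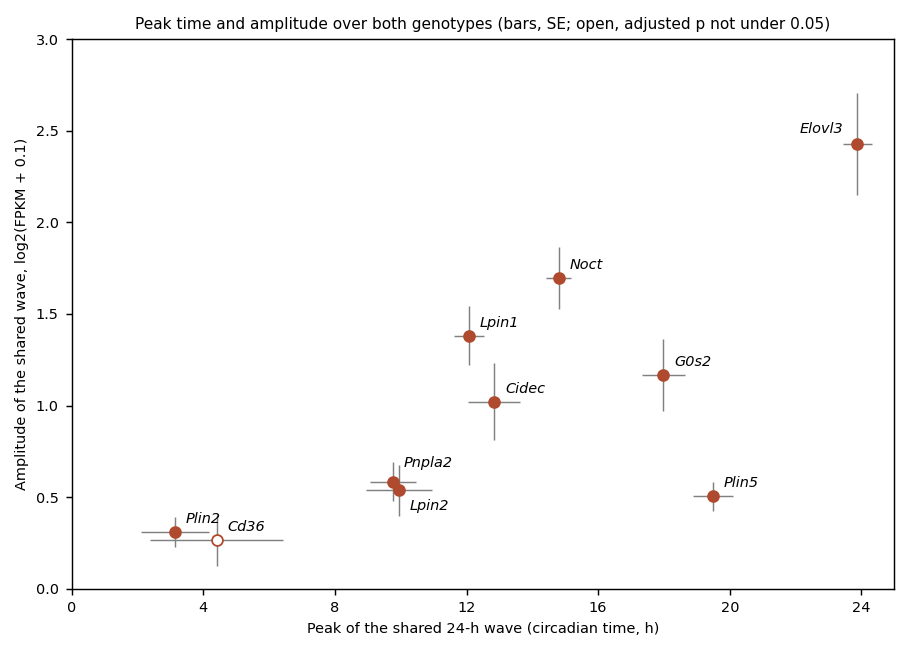
Peak time in circadian hours (horizontal) and amplitude on the log2(FPKM + 0.1) scale (vertical) of the wave fitted to both genotypes together; bars are standard errors, and the open point, Cd36, did not pass at an adjusted p under 0.05. Peaks run from Plin2 at CT3.14 through Pnpla2 and Lpin2 near CT10, Lpin1 at CT12.1 and Noct at CT14.8 to G0s2 at CT18.0 and Elovl3 at CT23.9.

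By the wave shared by both genotypes, Pnpla2, Lpin2, Lpin1 and Cidec peaked from CT9.77 to CT12.8, Noct at CT14.8, G0s2 and Plin5 from CT18.0 to CT19.5, and Elovl3 at CT23.9. Across the 12 group means, which the genes share along with their libraries, Elovl3 and Lpin1 ran most against each other (r = -0.92), and Lpin2 ran with Pnpla2 (r = 0.83). By the same measure the 3 genes most like each of the others were as follows. For Lpin1 they were Bnip3, Por and Serpina6 (r from 0.955 to 0.961), for Lpin2 Myo18a, Ulk1 and Clmn (0.918 to 0.952), and for Pnpla2 Ell, Acot12 and Ube2q1 (0.945 to 0.963). For Noct they were Foxa3, Tnks1bp1 and Marveld1 (0.956 to 0.973), for Plin5 Skil, Chst13 and Nbeal2 (0.939 to 0.952), and for G0s2 Dusp11, Alg11 and Ddx55 (0.962 to 0.976). For Plin2 they were Pld1, Zc3hav1 and Afg3l1 (0.914 to 0.929), for Cidec Pfdn6, Gm10036 and Acaa1a (0.866 to 0.909), and for Cd36 Gnptg, Zfp182 and Ssh3 (0.88 to 0.919). With 12 points and 11244 genes to choose from, these are descriptions.

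The second question was whether these genes differed in livers whose Bmal1 rhythm was damped. The clock genes Dbp, Nr1d1 and Per2 kept waves of 3.15 ± 0.36, 2.84 ± 0.22 and 2.09 ± 0.22 in ΔRRE, beside 3.65 ± 0.35, 3.02 ± 0.30 and 1.71 ± 0.11 in WT. Of the 10 genes, 0 differed in the fitted wave between genotypes by limma's test, against 1 of 11244 genes, with 0 at an unadjusted p under 0.05, against 2.84% of all genes. With time as a factor in place of the wave, Lpin1 (limma's unadjusted p = 0.00755) and Cidec (0.0159) were under 0.05, against 3.31% of all genes in that test, each with an adjusted p of 0.9999. For the wave the exact permutation test gave p from 0.127 (Pnpla2) to 0.823 (Elovl3). The amplitude was lower in ΔRRE for Lpin1, Lpin2, Pnpla2, Cd36, Plin2, Plin5 and G0s2 and higher for Elovl3, Cidec and Noct, with none of these differences past the test. That 7 genes passed in WT and 4 in ΔRRE therefore does not show a difference between the genotypes. Elovl3, Lpin1 and Noct passed in each genotype on its own, but with no filter on low values their ΔRRE calls were lost (adjusted p = 0.1, 0.0817 and 0.0551).

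**Figure D3:**
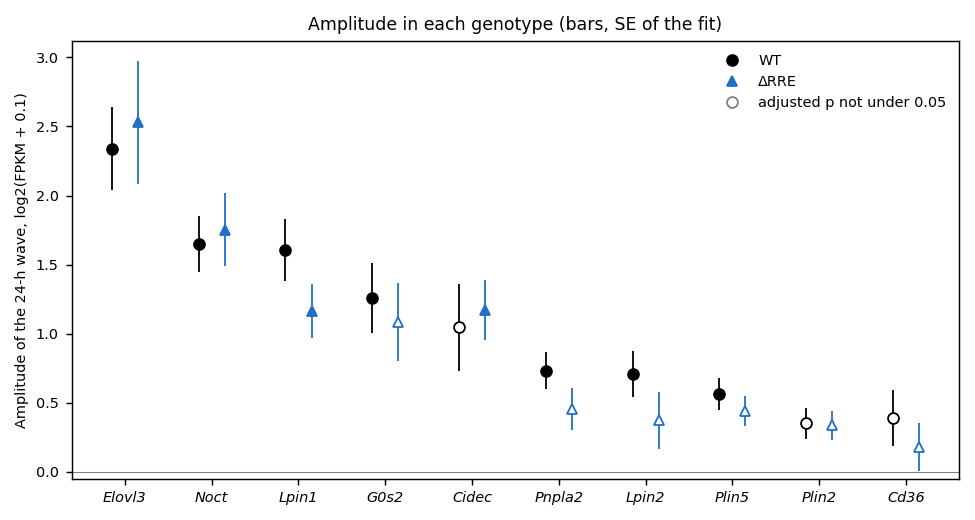
Amplitude of the fitted wave of each gene on the log2(FPKM + 0.1) scale, in WT (black circles) and ΔRRE (blue triangles), 12 libraries each; bars are standard errors of the fit and open marks did not pass at an adjusted p under 0.05. WT and ΔRRE bars overlap or nearly touch for each gene, and 7 WT and 4 ΔRRE marks are filled.

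Mean levels over the 6 times also gave no difference that passed over all genes, which does not show that they were equal. In limma's test of level 0 of the 10 genes and 0% of all genes passed at an adjusted p under 0.05, while 1 of the 10 and 1002 of 11244 genes (8.91%) had an unadjusted p under 0.05. The 1 gene was Plin5, higher in ΔRRE by 0.18 ± 0.08 (log2, 1.13-fold; p = 0.0405, adjusted p = 0.531; exact permutation p = 0.0484, two-sided), with all ΔRRE libraries above all WT libraries at CT2 (22.9 and 22.3 against 17.2 and 17.2 FPKM), CT10 (11.4 and 15.4 against 9.64 and 10.0 FPKM) and CT22 (23.8 and 22.4 against 21.6 and 22.0 FPKM). Without ΔRRE CT14 replicate 1 its p was 0.0707. After rescaling by the median of ratios Plin5 was higher by 0.14 and no longer had an unadjusted p under 0.05, and Noct did (-0.47, adjusted p = 0.695). Noct was lower in ΔRRE by 0.43 ± 0.21 on the log2 scale, or 0.743-fold (p = 0.0585, adjusted p = 0.574; exact permutation p = 0.0818), and by 0.48 without that library (p = 0.0424, adjusted p = 0.65). The median ΔRRE minus WT difference was 0.12 over the 10 genes and 0.04 over all genes tested.

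At single times the genotypes were compared 2 libraries against 2. No gene of the 10 passed at an adjusted p under 0.05 in any of the 60 pairs of gene and time, against 0.0104% of all pairs, and 6 of the 60 had an unadjusted p under 0.05, against 4.15% of all pairs. The ΔRRE libraries were higher without overlap in 16 of the 60 pairs (26.7%, against 19.3% of all pairs) and the WT libraries in 11 (18.3%, against 11.9%). For 6 of the 10 genes both directions occurred, at different times, against 33% of all genes. CT22 held the most of these: ΔRRE was higher without overlap for Lpin1, Lpin2, Pnpla2, Cidec, Plin2 and Plin5, 6 of the 10 genes against 21.7% of all genes, and WT was higher for Noct, against 15.4%. Of the 6 unadjusted calls, 4 were at CT22: Cidec (1.40 ± 0.56), Plin2 (0.64 ± 0.26), Pnpla2 (0.61 ± 0.28) and Noct (-1.14 ± 0.49). These were 4 of the 10 genes, against 4.66% of all genes tested at that time. None of the 4 had an adjusted p under 0.99 by limma. Plin2 at CT22 was at 186 and 221 FPKM in ΔRRE and at 136 and 124 FPKM in WT. The other 2 were Lpin1 at CT14 (-1.14 ± 0.33, limma's adjusted p = 0.9993), where the mean was 43.7 FPKM in WT and 19.6 FPKM in ΔRRE, and Cidec at CT2 (-1.56 ± 0.56, adjusted p = 0.9998).

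**Figure D4:**
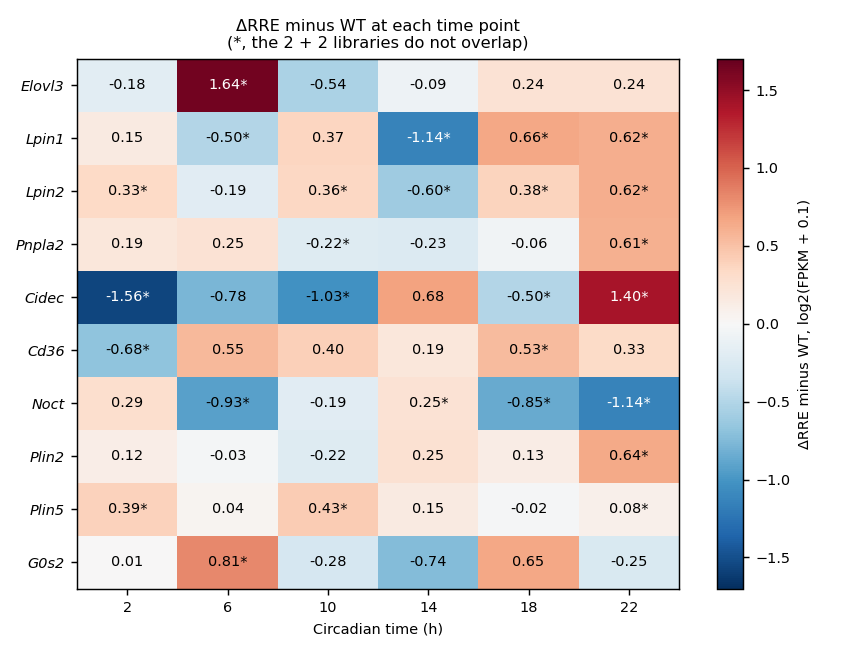
ΔRRE minus WT on the log2(FPKM + 0.1) scale for each gene (rows) and circadian time in hours (columns), red where ΔRRE was higher and blue where WT was higher; an asterisk marks 2 ΔRRE and 2 WT libraries that do not overlap. The strongest colours are Elovl3 at CT6 (1.64), Cidec at CT2 (-1.56) and at CT22 (1.40), and the CT22 column is mostly red, with Noct the deepest blue in it.

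The other genes of these pathways had smaller waves in the median. Some, such as those of Elovl5 (0.83) and Ces1d (0.70), were as wide as the narrower waves of the 10 genes. Both were below that of Cidec (1.02). The 6 lists of related genes held 73 genes, of which 65 were tested. A shared rhythm passed for 29 of them (44.6%, against 30.6% of all genes), 12 with a peak from CT0 to CT12 and 17 from CT12 to CT24; 16 passed in WT and 6 in ΔRRE, against 10.3% and 4.57% of all genes, and 0 differed between genotypes in rhythm or level. Their median shared amplitude was 0.23, against 0.80 for the 10 genes and 0.17 for all genes.

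Among droplet proteins 6 of 12 tested genes (50%) had a shared rhythm, against 30.6% of all genes. Those with the smallest p were Aifm2 (0.28 ± 0.05, peak at CT14.5), an oxidoreductase found on droplets, the perilipin Plin3 (0.35 ± 0.07, CT6.5), the droplet hydrolase Ldah (0.38 ± 0.08, CT20.9), Cideb (0.15 ± 0.03, CT3.9), a relative of Cidec, and Fitm2 (0.34 ± 0.08, CT14.4), which helps droplets bud. Among lipases and their cofactors it was 5 of 12 (41.7%), led by the carboxylesterase Ces1d (0.70 ± 0.08, CT19.2). The others were Abhd6 (0.50 ± 0.09, CT17.9), a monoacylglycerol lipase, the lysosomal lipase Lipa (0.38 ± 0.05, CT23.6), the hepatic lipase Lipc (0.29 ± 0.06, CT1.7) and the phospholipase and lipase Ddhd2 (0.33 ± 0.10, CT13.0). Ces1d and Lipa passed in both genotypes. Angptl4, an inhibitor of lipoprotein lipase, passed in WT only by its own test (0.88, adjusted p = 0.0134, against 0.16 in ΔRRE, adjusted p = 0.96), and its difference between the genotypes did not pass (adjusted p = 0.9999). Lipc went the other way and passed by limma in ΔRRE only (0.38, adjusted p = 0.00917, against 0.19 in WT, adjusted p = 0.325). Gpat3 and Acsl1, of the lists below, also passed in ΔRRE only. The differences of Lipc, Gpat3 and Acsl1 between the genotypes did not pass either.

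Among genes of triglyceride synthesis 6 of 11 (54.5%) had a shared rhythm, against 30.6% of all genes. The acyltransferases Agpat1 (0.54 ± 0.07, CT15.9) and Agpat2 (0.43 ± 0.06, CT21.7), Gpat3 (0.51 ± 0.14, CT12.0) and Dgat2 (0.29 ± 0.04, CT14.2), which makes the final triglyceride, peaked in the later part of the cycle or at its middle. Lpin3, the third lipin, peaked at CT7.0 (0.49 ± 0.11), before Lpin2 and Lpin1. For uptake and activation it was 5 of 13, a share of 38.5% near that of all genes, among them the acyl-CoA synthetases Acsl1 (0.40 ± 0.09, CT21.6), Acsl4 (0.37 ± 0.08, CT18.2) and Acsl5 (0.36 ± 0.07, CT0.4). The others were Slc27a2 (0.26 ± 0.08, CT11.3), a fatty acid transporter, and the fatty acid binding protein Fabp4 (0.32 ± 0.10, CT2.0).

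Among elongation genes 5 of 9 (55.6%) had a shared rhythm, against 30.6% of all genes. Elovl5, an elongase of polyunsaturated fatty acids, had the widest wave of the list (0.83 ± 0.10, CT1.5) and passed in both genotypes, peaking close to Elovl3 with 0.83 beside 2.43 on the log2 scale. Elovl1 (0.40 ± 0.09) peaked at CT21.3 and Elovl6 (0.61 ± 0.16) at CT17.1. Hsd17b12 (0.24 ± 0.05, CT0.5) and Hacd3 (0.23 ± 0.04, CT11.4), which carry out later steps of the elongation cycle, also passed. A list of other deadenylases held only some genes of nocturnin's own enzyme family. Of its 8 tested genes, 2 had a shared rhythm (against 30.6% of all genes, a difference that was not tested). These were Cnot6l (0.20 ± 0.06), a relative of nocturnin, and Parn (0.19 ± 0.06), which is of another family, and the median amplitude of that list was 0.10 beside 1.7 for Noct.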

How the data were processed

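Poly(A) RNA of liver was made into 24 directional libraries (12 WT and 12 ΔRRE, 2 per genotype and time point) and sequenced in pairs by the authors. The deposited values are FPKM per gene, 1 file for each library; per the submitters' processing notes Trimmomatic 0.39, HISAT2 2.1.0 and StringTie 1.3.5 were used with mm10. The FPKM summed to between 554170 and 624746 per library. Read counts were not analysed here, so the depth behind single values is unknown and no counting interval is given. No pair of replicates shared more than 0.00942% of its values.

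Samples were grouped by genotype and time as labelled. Values were tested as log2(FPKM + 0.1) with limma 3.58.1 in R 4.3.3 (moderated test with an intensity trend) for genes averaging 1 FPKM or more, with Benjamini-Hochberg adjustment over all 11244 genes (at each time separately for single time points). Fold changes on this scale understate those of low genes such as Cidec and Noct. Rhythm was tested by a cosine and sine of 24 h within each genotype, and in 1 model of 24 libraries for the shared wave and the difference in rhythm; mean level was tested in a model with time as a factor. BIO_CYCLE, the study's program, was not used here. For exact permutation tests the 4 libraries of a time were split into 2 and 2 in every way at all times, 23328 splits in all. The scripts were tested on simulated data. Genes were named by rule: the 10 genes, Arntl, Dbp, Nr1d1 and Per2, genes of the 6 pathway lists that passed any test (up to 5 per list and test), the leading cell type markers, and the 3 genes most like each of the 10. Other settings are in the closing section. The 10 genes and the lists were chosen with earlier results of these data known. Positions are from GENCODE M21.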

Additional observations from a re-analysis of the deposited data

Results flagged for a closer look

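For 6 of the 10 genes the 2 WT and 2 ΔRRE libraries separated completely in one direction at one time and in the other direction at another, as for 33% of all genes tested. With 2 against 2 libraries such separations were common among all genes (19.3% of pairs of gene and time with ΔRRE higher, 11.9% with WT higher). As ΔRRE minus WT on the log2 scale, Lpin1 was at -1.14 at CT14 and 0.66 at CT18, Lpin2 at -0.60 at CT14 and 0.62 at CT22, and Pnpla2 at -0.22 at CT10 and 0.61 at CT22. Cidec was at -1.56 at CT2 and 1.40 at CT22, Cd36 at -0.68 at CT2 and 0.53 at CT18, and Noct at -1.14 at CT22 and 0.25 at CT14. The difference between those particular times was not tested; limma's test of any change in the genotype difference over the 6 times gave an unadjusted p of 0.00755 for Lpin1, 0.0159 for Cidec, 0.202 for Noct, 0.295 for Lpin2, 0.302 for Pnpla2 and 0.444 for Cd36, each with an adjusted p of 0.9999 over all genes; 3.31% of all genes had an unadjusted p under 0.05 in that test. The rhythm of Arntl, the gene whose RREs were deleted, differed between genotypes by 2.31 (log2), which passed the test over all genes with an adjusted p of 0.0463 and under some alternatives only. Groups held 2 libraries each, so single libraries were not tested as outliers.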

How the results depend on the processing

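The counts of the 10 genes with a shared rhythm, by the study's 3 criteria, or with a difference in rhythm, level or single time points stayed within 1.5 times of those reported under each alternative run. Without a filter on low values, which raised the genes tested to 28380, 3 genes passed in WT (Elovl3, Lpin1 and Noct) and 0 in ΔRRE; all genes called fell to 519 in WT and 197 in ΔRRE. With a mean of at least 5 FPKM, 2 passed in ΔRRE, since Cidec and Noct were no longer tested. Leaving out 1 library at a time gave 6 to 7 genes in WT, 3 to 5 in ΔRRE and 8 to 9 with a shared rhythm. The difference in level was near 0 for 2 genes and took the other sign under some settings: rescaling by the median of ratios gave -0.014 for Lpin1 (0.027 as reported) and -0.0082 for G0s2 (0.033 as reported), and leaving out 1 library gave -0.051 to 0.12 for Lpin1 and -0.080 to 0.19 for G0s2. Neither passed a test in any setting. For single genes, calls of a rhythm were lost 18 times in WT, 7 times in ΔRRE and 3 times for the shared wave over all alternatives, and gained 2 times in WT and 4 times in ΔRRE. Of 974 refitted amplitudes and 974 peak times, 965 and 970 moved by less than their SE; adding 1 FPKM before the logarithm lowered the shared amplitude of Cidec to 0.55 and of Noct to 1.25.

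The difference in rhythm of Arntl, the 1 gene that passed, had a size of 1.53 (1 FPKM added) to 2.56 (0.01 FPKM added) and a call that depended on the setting: its adjusted p by limma was 1.2e-05 with time as a factor, 0.000153 with 1 FPKM added and 0.0405 after rescaling by the median of ratios, and 0.221 with 0.01 FPKM added, 0.135 without a filter, 0.0731 with a prior without a trend and 0.0771 with the replicate block, and 0.00284 to 0.198 on leaving out 1 library. With a mean of at least 5 FPKM Arntl was not tested.

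With the replicate number as a block, 7 genes passed in WT, 4 in ΔRRE, 9 with a shared rhythm and 0 in the tests between genotypes, as without it. Deviations of same-numbered WT and ΔRRE libraries correlated at over 0.1 at 2 of 6 times (r from -0.12 to 0.21), so the numbers were not taken to pair the samples.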
